A study of Ovis aries with 5 samples.

Results

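H3K4me3 peaks on the sheep autosomes were divided by whether the peak of one fetus was found again in the other. A peak was shared when it overlapped, by 1 bp or more, any peak of the other H3K4me3 list, and single-library when it did not. All rows of both lists on chromosomes 1 to 26 were used, which gave 96573 peaks, out of 112352 H3K4me3 peaks on all chromosomes and 213217 peaks in the 4 immunoprecipitated libraries of the series. Replicate 1 held 45267 of these peaks and replicate 2 held 51306.

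H3K4me3, the trimethylation of histone H3 at lysine 4, is deposited at promoters of transcribed genes and of genes held ready for transcription, and long H3K4me3 domains are known at genes that define a cell's identity. H3K27ac, the acetylation of lysine 27, marks active promoters and enhancers. H3K27me3, the trimethylation of the same lysine, is laid down by Polycomb proteins over silenced genes, many of them developmental regulators, and promoters that carry it beside H3K4me3 are called bivalent. Acetylation and trimethylation exclude each other on a given lysine 27, so regions of H3K27ac and H3K27me3 are mostly separate.

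The tissue was perirenal adipose, the fat around the kidney, from wild type, pure bred merino fetuses (Ovis aries) taken at day 132 after conception. The ewes received no treatment and a diet that met their maintenance energy requirement. Nuclei were isolated from frozen tissue, the chromatin was cut with micrococcal nuclease, and nucleosomal DNA was pulled down with an antibody to H3K4me3 (Abcam ab8580) or to H3K27ac. Replicates 1 and 2 were 1 fetus each, the same fetus gave the H3K4me3 and the H3K27ac library of a replicate, and 1 input library of DNA combined over fetuses was the control for all. Bulk tissue was used, so a mark carried by more cells and more of the mark per cell cannot be told apart. The defining markers of adipocytes were not analysed here, because the peak positions were not joined to genes.

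After duplicate removal, replicate 1 held 92882463 tags and replicate 2 held 109652707, against 26651829 in the input. Duplicates were 27.1 and 29.5% of the tags, and 16.3 and 20.5% of the retained tags lay in autosomal H3K4me3 peaks. The libraries differed most on chromosome X, which was left out of the peaks described here and held 5072 peaks in replicate 1 and 10707 in replicate 2. With 2 libraries the smallest exact permutation p is 0.5, so no difference between them was tested. Peaks of a library are not replicates, so intervals are 95% Wilson intervals that cover counting error only, and each value is given for both libraries.

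In replicate 1, 34195 of 45267 peaks were shared, or 75.5% (75.1 to 75.9%), and 11072 were single-library. In replicate 2, 33760 of 51306 peaks were shared, or 65.8% (65.4 to 66.2%), and 17546 were single-library. The pooled single-library peaks thus numbered 28618, more of them from the deeper library. Shared peaks held 88.8% of the tags in autosomal peaks of replicate 1 and 85.6% in replicate 2, so the single-library peaks carried a small part of the signal. The shared fraction ranged from 69.2% on chromosome 21 to 80.9% on chromosome 7 in replicate 1, and from 57.7% on chromosome 8 to 80.8% on chromosome 14 in replicate 2. The chromosomes did not rank alike, since chromosome 7 had 63.2% shared in replicate 2 and chromosome 21 had 77.2%.

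Most shared peaks overlapped their partner well. In replicate 1, 95.4% of shared peaks were covered over at least 50% of their length by a peak of the other list, and in replicate 2 93.4% were. An overlap of 100 bp or less decided the class of 77 shared peaks of replicate 1 and 61 of replicate 2. On the other side of the rule, 229 single-library peaks of replicate 1 and 141 of replicate 2 missed a peak of the other list by 100 bp or less. The median gap from a single-library peak to the other list was 9556.5 bp in replicate 1 and 15939 bp in replicate 2. Gaps of 1 kb or less were found for 14.6% of the single-library peaks of replicate 1 and 7.92% of those of replicate 2. Single-library peaks of replicate 1 also lay nearer to shared peaks of their own list, with 43.3% within 10 kb against 34.1% in replicate 2.

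Shared peaks were longer, held more tags per kb and were more enriched over the input than single-library peaks in both libraries. The median length of shared peaks was 1550 bp in replicate 1 and 1636 bp in replicate 2. For single-library peaks it was 1168 and 1165 bp, and 1166 bp after pooling. The ratio of medians was 1.33 and 1.4, and shared peaks had the longer median on 26 of 26 autosomes in each library. Broad peaks of 3 kb or longer were 15.0% of shared and 1.86% of single-library peaks in replicate 1, and 18.8% and 1.2% in replicate 2. Length enters the rule itself, because a longer peak has more bases that can meet another. Within each class of the peak caller's score, given below, single-library peaks had the longer median.

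Tag density, the tags of a peak divided by its length, had a median of 173 tags per kb in shared and 113 in single-library peaks of replicate 1. In replicate 2 the medians were 209 and 136 tags per kb, and the ratios of medians were 1.52 and 1.54. Scaled to 1000000 retained tags per library (CPM), densities were 1.86 and 1.91 CPM per kb in shared peaks and 1.22 and 1.24 in single-library peaks, so the libraries lay close together within each class. The densities of single-library peaks spread little, from 1.12 to 1.36 between the quartiles of replicate 1 and from 1.13 to 1.41 in replicate 2. Shared peaks are the same loci in both libraries. Single-library peaks had median scores of 70.9 and 76.6, where the caller's limit is 50. How far these facts set the closeness and the spread was not tested. The fold enrichment that MACS gave over the input had a median of 38.4 and 20.4 in shared and single-library peaks of replicate 1, and 46.9 and 25.9 in replicate 2. The plot of length and density shows that shared peaks were spread widely upwards while single-library peaks stayed near the lower end.

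**Figure D1:**
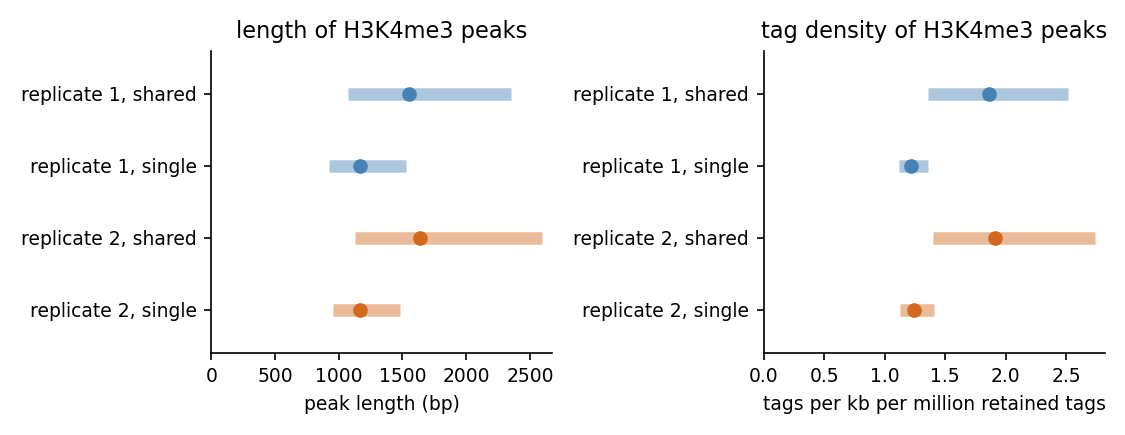
Length in bp (left) and tags per kb and per 1000000 retained tags (right) of shared and single-library H3K4me3 peaks in both libraries. Points are medians and bars run between the quartiles over peaks. Median lengths were 1550 and 1636 bp for shared and 1168 and 1165 bp for single-library peaks of replicates 1 and 2.

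The share of peaks found in both libraries rose with the MACS score, which is −10 times the log10 of the p-value that the caller gave the peak. In the lowest class, from 50 to 60, 41.3% of the peaks of replicate 1 and 29.9% of those of replicate 2 were shared. In the class from 100 to 150 the shares were 71.7 and 57.1%, and at 500 or more they were 99.8 and 99.6%. Replicate 1 had the higher shared fraction in every class, and 17 and 44 single-library peaks were left at 500 or more. The median score was 233 in shared and 70.9 in single-library peaks of replicate 1, and 261 and 76.6 in replicate 2. At low scores shared and single-library peaks were almost equally dense, with 113 and 111 tags per kb in replicate 1 between 60 and 80, and 133 and 131 in replicate 2. The gap widened with score, to 210 and 152 tags per kb in replicate 1 and 245 and 204 in replicate 2 between 300 and 500, and to 255 and 153 for replicate 1 and 334 and 234 for replicate 2 at 500 or more. Single-library peaks had a longer median than shared ones in every score class of both libraries. Between 50 and 60 the medians were 996 against 946 bp in replicate 1 and 977 against 963 bp in replicate 2. Between 200 and 300 they were 2244.5 against 1411 bp in replicate 1 and 1795 against 1480 bp in replicate 2.

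**Figure D2:**
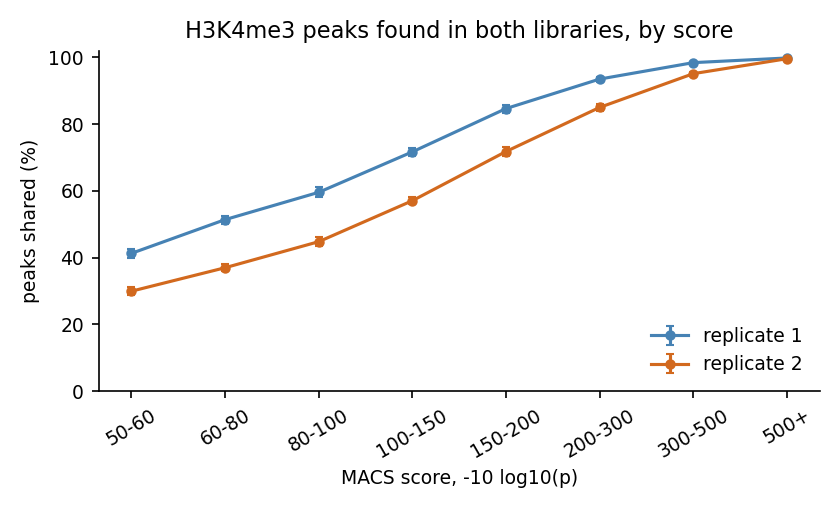
Percent of autosomal H3K4me3 peaks that were shared, by class of MACS score, for replicate 1 and replicate 2. Bars are 95% Wilson intervals over peaks. The share rose from 41.3 and 29.9% in the lowest class to 99.8 and 99.6% in the highest.

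The summit, the base of highest tag pile-up, lay at a median of 32.0% of the way from the centre to the end of a shared peak and 30.5% of a single-library peak in replicate 1. In replicate 2 it lay at 30.8 and 24.9%, so over all lengths single-library summits were nearer the centre by 1.5 and 5.81 percentage points. The pooled single-library peaks had a median of 27%. The difference of replicate 1 was small and turned to −0.402 points when sharing required a reciprocal overlap of 50%. It turned to −1.29 points when both lists were cut to peaks of 1 kb or longer. The offset differed between length classes. In replicate 1, single-library summits were farther from the centre between 1 and 3 kb, at 39.2 against 34.9% from 2 to 3 kb. They were nearer in the other length classes. In replicate 2 they were nearer in every class under 3 kb, at 24.6 against 26.4% from 1 to 1.5 kb. At 3 kb or longer they were farther, at 44.5 against 42.5%. In base pairs, the median offset was 229.5 and 169 bp in replicate 1 and 231 and 138 bp in replicate 2, which also reflects the lengths above.

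Summits of matching peaks lay close together. Among 28993 clusters with 1 peak in each library, the summits were a median of 151 bp apart and 45.5% were within 100 bp. The distance grew with length, from a median of 24 bp for peaks under 1 kb to 316 bp for peaks of 3 kb or longer.

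H3K27ac separated the single-library peaks of the fetuses from each other. Joint H3K27ac regions, which the authors deposited as 1 list for both fetuses, covered 7.47% of the autosomes in 34899 regions. Of all autosomal peaks, 35.1% in replicate 1 and 42.6% in replicate 2 overlapped such a region. Shared peaks did so in 41.8% of cases (14291 peaks) in replicate 1 and in 41.3% (13946) in replicate 2. These rates were bound to be close, because shared peaks of both libraries are overlapping peaks at the same loci, set against 1 list. Single-library peaks did so in 14.6% of cases in replicate 1 (1617 peaks, 14.0 to 15.3%) and in 45.1% in replicate 2 (7920 peaks, 44.4 to 45.9%). Pooled, 33.3% of single-library peaks overlapped H3K27ac, a value that described neither library. Shared minus single-library came to 27.2 percentage points in replicate 1 and −3.83 points in replicate 2. The difference of replicate 2 depended on which peaks were compared. It changed sign, to 0.368 points, when both lists were cut at an FDR of 1% or less before peaks were classed. It also changed sign, to 4.13 points, with chromosome X added. As an unweighted mean over classes of MACS score, an alternative chosen after seeing the data, it was −18.6 points.

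H3K27me3 went the other way. Joint H3K27me3 regions covered 1.97% of the autosomes in 15430 regions, and 16.0% of all autosomal H3K4me3 peaks in replicate 1 and 11.2% in replicate 2 overlapped one. Shared peaks, again the same loci set against 1 list, had 14.6% (4986 peaks) and 15.4% (5189). Single-library peaks overlapped H3K27me3 in 20.5% of cases in replicate 1 (2274 peaks, 19.8 to 21.3%) and in 3.05% in replicate 2 (535 peaks, 2.80 to 3.31%). The pooled value was 9.82% (2809 peaks). Shared minus single-library was −5.96 points in replicate 1 and 12.3 points in replicate 2. The difference of replicate 1 was −22.8 points with an FDR of 1% or less and −17.0 points at scores of 100 or more. Those limits cut both lists before classing, so peaks whose partner failed the limit counted among the 6110 and 5369 single-library peaks. With the classes kept, the unweighted mean over score classes was −24.2 points, an alternative chosen after seeing the data. It gave the highest class, with 17 single-library peaks, the same weight as the lowest, with 3305. In the lowest class 5.73% of shared and 13.3% of single-library peaks overlapped H3K27me3, and in the highest 15.5 and 70.6% did. The difference of replicate 2 held on the autosomes but turned to −1.52 points with chromosome X added. With it, 24.6% of the single-library peaks of replicate 2 overlapped H3K27me3. Counting only summits, 18.3% of single-library peaks of replicate 1 had theirs inside an H3K27me3 region, against 2.66% in replicate 2, which is near the 1.97% of the autosomes that these regions covered. The H3K27me3 list gave the same regions for both libraries, and the labels do not tie it to either fetus.

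**Figure D3:**
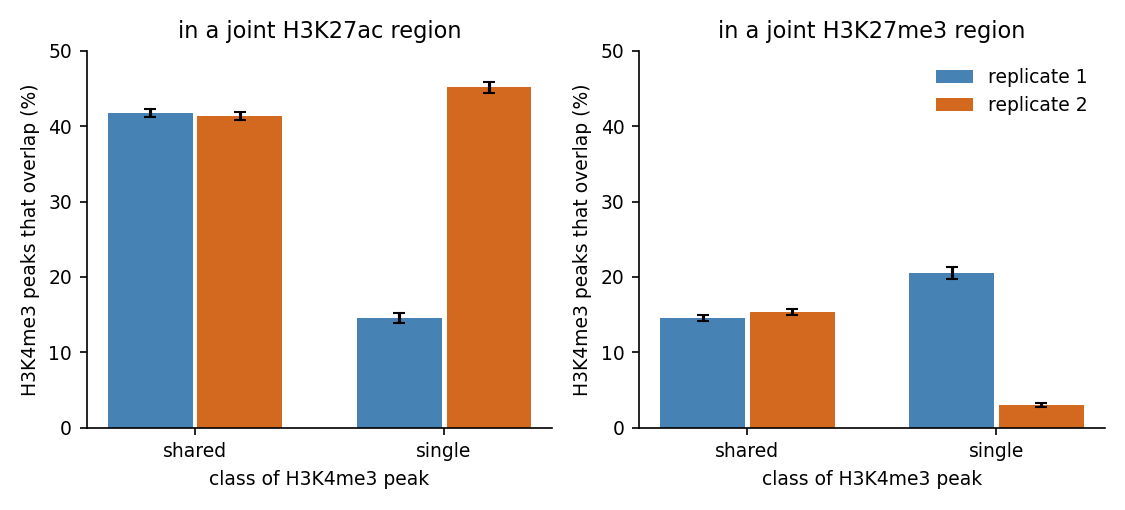
Percent of shared and single-library H3K4me3 peaks that overlapped a joint H3K27ac region (left) or a joint H3K27me3 region (right) by 1 bp or more, for replicate 1 and replicate 2, with 95% Wilson intervals over peaks. Shared peaks of both libraries are the same loci, which holds their values close. Single-library peaks had 14.6 and 45.1% in H3K27ac and 20.5 and 3.05% in H3K27me3.

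The same contrast held along the genome. In replicate 1, shared peaks had the higher H3K27ac share on 26 of 26 autosomes and single-library peaks the higher H3K27me3 share on 24 of 26. In replicate 2, shared peaks had the higher H3K27me3 share on 26 of 26 autosomes and single-library peaks the higher H3K27ac share on 20 of 26. Chromosomes of a library are not independent samples, and these counts describe how evenly the contrast was spread. Distances showed it too, with a median of 2378 bp from a shared peak of replicate 1 to the nearest H3K27ac region and 21815.5 bp from a single-library peak. In replicate 2 these medians were 2485 and 2109 bp. The median distance to the nearest H3K27me3 region was 75281 bp for shared and 52659.5 bp for single-library peaks of replicate 1, and 71778.5 and 168411 bp in replicate 2. In replicate 2, 63.3% of single-library peaks lay farther than 100 kb from H3K27me3, against 37.7% in replicate 1.

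Many peaks lay in neither kind of region, 45.1 and 44.8% of shared peaks and 65.1 and 52.0% of single-library peaks in replicates 1 and 2. Peaks that touched both kinds were few, 1.42 and 1.47% of shared and 0.262 and 0.217% of single-library peaks. Since single-library peaks were shorter and weaker, the marks were also compared within classes of length and score. Among peaks under 1 kb, 32.8% of shared and 11.0% of single-library peaks of replicate 1 overlapped H3K27ac, and at 3 kb or longer 50.0 and 13.6% did. In replicate 2 the H3K27ac difference reversed with length, from 20.9% of shared and 41.0% of single-library peaks under 1 kb to 50.4 and 43.2% at 2 to 3 kb and 58.3 and 41.0% at 3 kb or longer. H3K27me3 was overlapped by 8.82% of shared and 18.7% of single-library peaks under 1 kb in replicate 1, and by 16.3 and 2.60% in replicate 2. Among peaks of 3 kb or longer the H3K27me3 shares were 20.7 and 13.5% of shared peaks in replicates 1 and 2, against 37.4% of 206 single-library peaks in replicate 1 and 5.71% of 210 in replicate 2.

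The contrast between the single-library peaks of the fetuses widened with score. The H3K27me3 share of single-library peaks of replicate 1 rose from 13.3% at scores from 50 to 60 to 53.1% at 200 to 300 and 56.6% at 300 to 500, where 43 of 76 peaks overlapped. Above that, 12 of 17 overlapped (70.6%, 46.9 to 86.7%). In replicate 2 it stayed at or below 3.31% in every class, and 0 of 44 overlapped at 500 or more, with an upper Wilson limit of 8.03%. The H3K27ac share of single-library peaks of replicate 2 rose from 37.6% at 50 to 60 to 58.3% at 200 to 300, while that of replicate 1 went from 16.6 to 8.66%. Shared peaks also differed between the libraries at low scores. Between 50 and 60, 39.9% of shared peaks of replicate 1 and 19.1% of those of replicate 2 overlapped H3K27ac, and 5.73 and 18.8% overlapped H3K27me3. Weak shared peaks of replicate 1 thus lay in H3K27ac far more often than in H3K27me3, while those of replicate 2 lay in the 2 kinds of region about equally often. The H3K27me3 regions covered less of the autosomes, 1.97% against 7.47% for H3K27ac.

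**Figure D4:**
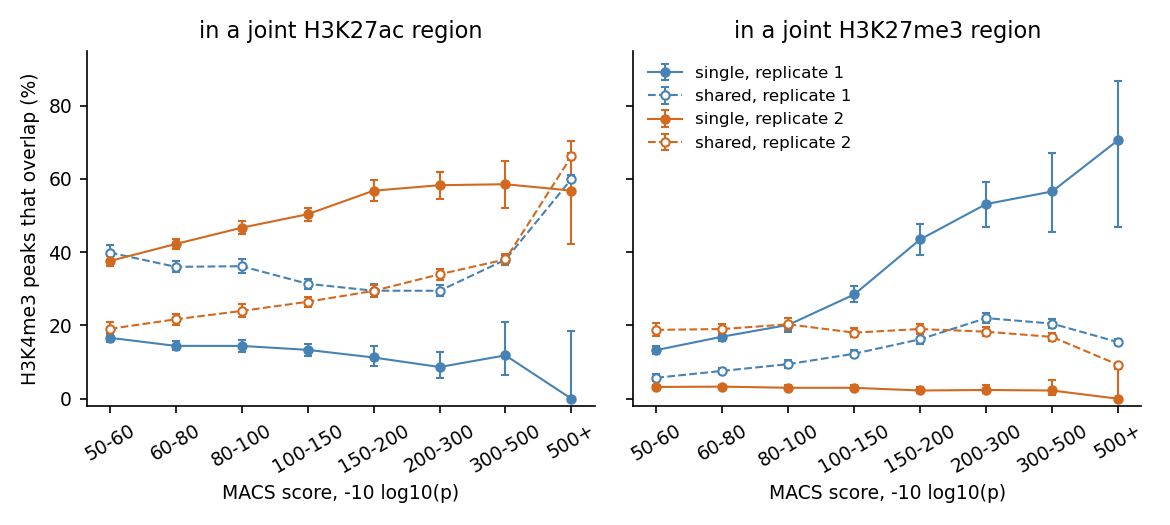
Percent of H3K4me3 peaks overlapping a joint H3K27ac region (left) and a joint H3K27me3 region (right), by class of MACS score. Filled points are single-library and open points are shared peaks, with 95% Wilson intervals over peaks. Single-library peaks of replicate 1 rose from 13.3 to 70.6% in H3K27me3, and those of replicate 2 were at or below 3.31% in every class.

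Single-library peaks were also counted by whether their marked region held a shared peak of the same library. Of all joint regions, 35.7% for H3K27ac in each library, and 31.4 and 30.9% for H3K27me3 in replicates 1 and 2, held one. Most joint regions of both kinds thus held no shared peak, which is the base for the shares that follow. Of the 1617 in H3K27ac regions in replicate 1, 69.1% lay in regions that held no shared H3K4me3 peak, and of the 7920 in replicate 2, 83.4% did. Of the 34899 joint H3K27ac regions, 6118 held a single-library and no shared peak of replicate 2, and 1035 did so for replicate 1, while 12458 held a shared peak of replicate 1 and 12456 held 1 of replicate 2. Of the 2274 single-library peaks of replicate 1 in H3K27me3 regions, 81.4% lay in regions with no shared peak, as did 71.4% of the 535 in replicate 2. Joint H3K27me3 regions with a single-library and no shared peak numbered 1823 in replicate 1 and 384 in replicate 2, of 15430. H3K27ac regions that held single-library peaks were long, with medians of 6458 bp in replicate 1 and 5119.5 bp in replicate 2, against 4489 and 4493 bp for those with shared peaks.

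The H3K27ac library of the same fetus was then set against that of the other fetus, using the H3K27ac peaks called in each library. Shared peaks of both libraries stand for the same loci and give the baseline, which favoured the H3K27ac list of replicate 1, at 58.2 against 49.4% for peaks of replicate 1 and 57.4 against 48.0% for peaks of replicate 2. Single-library peaks of replicate 1 overlapped H3K27ac of replicate 1 in 23.9% of cases and of replicate 2 in 16.2%. In percentage points, though not as a ratio, this gap was no larger than that of the shared peaks. Single-library peaks of replicate 2 overlapped H3K27ac of replicate 1 in 54.0% and of replicate 2 in 56.7%, the opposite order to the shared peaks. The baseline comes from stronger peaks, with median scores of 233 and 261 against 70.9 and 76.6 in single-library peaks. No baseline at matched score was computed. Overlap with H3K27ac of the own fetus alone was found for 10.1% of single-library peaks in replicate 1 and 7.27% in replicate 2, against 11.7 and 2.81% of shared peaks. The H3K27ac lists held 50408 autosomal peaks in replicate 1 and 49371 in replicate 2. Where both H3K27ac libraries had a peak, the median log2 ratio of H3K27ac CPM, replicate 2 over replicate 1, was −0.43 at 1528 single-library peaks of replicate 1, 0.01 at 8672 of replicate 2 and −0.18 over 14797 shared clusters.

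Overlapping shared peaks were chained into clusters so that tags could be compared between libraries, which gave 32005 clusters, 90.6% of them with 1 peak in each library. In CPM, the clusters correlated at a Pearson r of 0.858 and a Spearman rho of 0.831 on the log2 scale. All clusters come from the same libraries, and the length of a cluster enters both of its counts. For tags per kb the values were 0.807 and 0.809. The median log2 ratio, replicate 2 over replicate 1, was 0.20, with quartiles at −0.23 and 0.57. More than 2-fold higher in replicate 2 were 2579 clusters (8.06%), and more than 2-fold lower were 1231 (3.85%). These counts depended on the scaling. When tags were scaled to the total in shared clusters, the log2 ratios shifted by −0.27, the median became −0.08, and 3.81% of clusters were more than 2-fold higher and 7.84% lower. The differences between kinds of cluster below are the same under any scaling, and are therefore given relative to the median of all clusters as well.

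Tag ratios divided by mark in the same direction as the single-library peaks. The 12979 clusters in H3K27ac regions alone had a median log2 ratio of 0.43, which is 0.24 above the median of all clusters. The 4285 clusters in H3K27me3 regions alone had a median of −0.37, which is −0.57 relative to all clusters. Clusters in neither kind numbered 14252 and had a median of 0.08, and the 489 clusters that touched both kinds had 0.23. Beyond 2-fold, 10.7% of H3K27ac clusters were higher in replicate 2 and 0.986% lower, while 2.05% of H3K27me3 clusters were higher and 15.3% lower, against 8.06% and 3.85% of all clusters. After scaling to tags in shared clusters these shares were 4.85 and 2.20% for H3K27ac and 1.00 and 26.8% for H3K27me3. The H3K27ac median lay above the H3K27me3 median on 26 of 26 autosomes, at 0.27 to 0.54 against −0.53 to −0.18. There is 1 library per fetus, so these ratios have no replicate check.

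**Figure D5:**
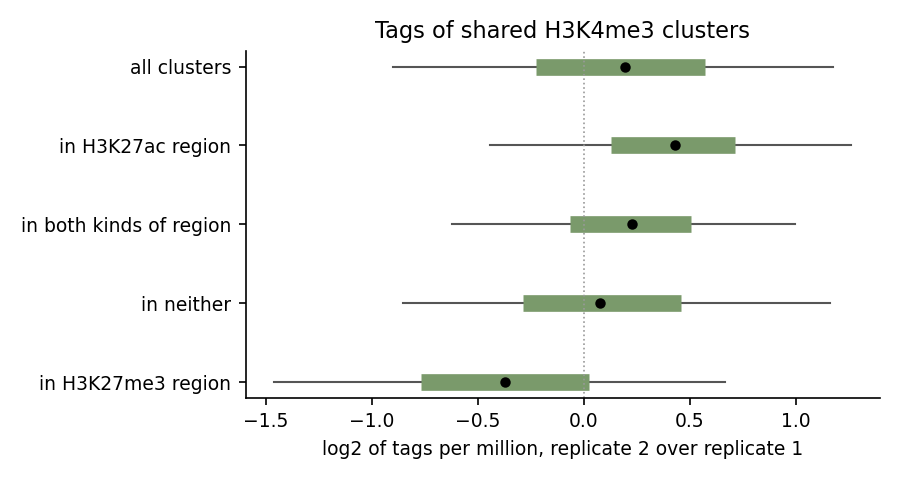
Log2 of tags per 1000000 retained tags, replicate 2 over replicate 1, in clusters of shared H3K4me3 peaks, by the kind of joint region they overlapped. Points are medians, thick bars run between the quartiles and thin lines from the 5th to the 95th percentile over clusters. Medians were 0.43 in H3K27ac regions and −0.37 in H3K27me3 regions.

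Both density and length differed between the libraries. In H3K27ac clusters the median log2 ratio of tags per kb was 0.21 and that of peak length 0.17, and in H3K27me3 clusters they were −0.21 and −0.11. The split was present at every signal level. In the 25% of clusters with the fewest tags the medians were 0.33 for H3K27ac and −0.38 for H3K27me3, and in the 25% with the most tags they were 0.46 and −0.29. Where both H3K27ac libraries had peaks, the H3K4me3 ratio rose with the H3K27ac ratio, at a Pearson r of 0.374 and a Spearman rho of 0.450 over 14797 clusters from the same fetuses. Over 4 equal groups of clusters from the lowest to the highest H3K27ac ratio, the median H3K4me3 log2 ratio was 0.16, 0.35, 0.56 and 0.73.

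The regions named next were picked by fixed ranks on tags, density, ratio and length, with positions on Oar_v3.1. A named region is given as in H3K27ac or H3K27me3 when it overlapped a joint region by 1 bp or more. The shared clusters with the most tags were long domains. The highest, chr12:23322812-23357730, held 7698 tags in replicate 1 and 11334 in replicate 2 and overlapped H3K27ac. Its ratio of 1.25-fold in CPM lay between the quartiles of all clusters. The next, chr4:68863738-68886769, held 7254 and 8772 tags over 23032 bp, a level equal between the libraries at 1.02-fold, and overlapped H3K27me3. The remaining cluster, chr14:57769251-57806441, held 7383 and 8508 tags in neither kind of region. The densest clusters were chr14:57446060-57449313 with 5.70 and 6.38 CPM per kb, chr14:57506088-57508468 with 5.73 and 5.24, and chr25:7452168-7455301 with 5.09 and 6.57. Both chromosome 14 clusters were dense yet only 12.5 to 18.2-fold enriched, whereas the chromosome 25 cluster was 82.2 and 84.0-fold enriched at a similar density. All chromosome 14 regions named here and below lie in the same stretch, chr14:57337928-57806441.

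The clusters that leaned most to replicate 1 had peaks of 1630 to 2674 bp in that library. At chr4:93648400-93650366, in H3K27me3, there were 446 tags in replicate 1 and 140 in replicate 2, which is 3.76-fold higher in CPM in replicate 1. At chr24:747326-749999, also in H3K27me3, there were 500 and 160 tags (3.69-fold), and at chr18:44666600-44668229, in neither kind, 307 and 99 (3.66-fold). The clusters that leaned most to replicate 2 lay in neither kind of region. At chr6:36438134-36442202 there were 305 tags in replicate 1 and 1673 in replicate 2 (4.65-fold higher in replicate 2), at chr15:13466807-13469368 there were 114 and 611 (4.54-fold), and at chr16:16867592-16872611 there were 387 and 2042 (4.47-fold). In all 6 clusters the library with more tags also had the longer peak.

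The single-library peaks with the most tags were unlike the class as a whole. In replicate 1 they were chr1:98632208-98646661 with 4118 tags over 14454 bp, chr2:89139549-89144193 with 3159 tags, and chr14:57359171-57367524 with 2093 tags. The peaks on chromosomes 1 and 14 ended 100 and 170 bp from a peak of the other list, close to the limit of the rule. The chromosome 2 peak lay 55219 bp from the other list and overlapped an H3K27me3 region. The peak chr15:663038-670836, with 1296 tags, was among the 3 longest. In replicate 2 the peaks with the most tags were also the longest, chr14:57401061-57409930 with 3083 tags, chr14:57337928-57346058 with 2738 and chr13:62039921-62047882 with 1769. None of these 3 lay in either kind of region, and the chromosome 14 peaks were 259 and 250 bp from the other list. Fold enrichment of these 7 peaks was 12.0 to 26.4, although their densities, at 1.79 to 7.32 CPM per kb, were above the single-library medians of 1.22 and 1.24.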

How the data were processed

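The authors mapped reads of 50 bp to Oar_v3.1 in CLC Genomics Workbench and called peaks per library with MACS 1.4.2 against 1 input. Their deposited lists give, for each peak, its position, length, summit, count of tags, a score (−10 log10 of the p-value, at a limit of 1e-05), the FDR in percent and the fold enrichment, a linear ratio of tags over the input. Joint H3K27ac and H3K27me3 regions were deposited as positions only. Starts in the joint H3K4me3 list equalled starts in the per-library lists in 100% of cases, so all were read as 1-based.

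Samples were assigned to mark and fetus from the titles. The members, lists and comparisons were chosen with earlier results of these data known. Medians and shares were computed per library with pandas 2.3.3, numpy 2.4.6 and scipy 1.17.1 under Python 3.11.15 (plots with matplotlib 3.10.9), and nothing was tested over peaks. The overlap code was tested on simulated data. The named regions were, by rule, the 3 shared clusters with the most tags and with the highest density (by the lower library), the 3 with the largest ratio each way among clusters of 1 peak in each library with a reciprocal overlap of 50% and 100 or more tags, and the 3 single-library peaks per library with the most tags and the 3 longest. A list of cell type markers was set but not used, and genes and sequences are not reported, because no annotation or genome of Oar_v3.1 was used here. The labels hold no sample for 2 per-library H3K27me3 files, which were left out. The alternatives changed the overlap, the FDR, length or score limit, the chromosomes, the distance between single-library peaks and the other list, the scaling of tags and the library left out. The FDR, length and score limits cut both lists before peaks were classed, so a peak whose partner failed the limit counted as single-library.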

Additional observations from a re-analysis of the deposited data

Results flagged for a closer look

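The same contrast, shared minus single-library peaks, went opposite ways in the H3K4me3 libraries of the 2 fetuses for both other marks. Overlap with joint H3K27ac regions differed by 27.2 percentage points in replicate 1 and by −3.83 points in replicate 2. Overlap with joint H3K27me3 regions differed by −5.96 points in replicate 1 and by 12.3 points in replicate 2. The difference between the fetuses was not tested, since each is 1 library per mark.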

How the results depend on the processing

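The 172 alternative values comprised values of each library, averages over both libraries and ratios between them. All kept their direction except as given here. The shared fraction averaged 70.7% and was 60.4% with a reciprocal overlap of 50% and 80.8% at an FDR of 1% or less (65.8 to 75.5% with 1 library left out). The length ratio of 1.37 became 1.30 with reciprocal overlap, 1.28 at that FDR, 1.44 among peaks of 1 kb or longer and 1.30 at scores of 100 or more (1.33 to 1.4 with 1 library left out). The density ratio of 1.53 became 1.57, 1.42, 1.66 and 1.58 under the same 4 settings and 1.46 with chromosome X (1.52 to 1.54 with 1 library left out). The summit difference averaged 3.66 points (1.5 to 5.81 with 1 library left out), and in replicate 1 turned to −0.402 with reciprocal overlap and −1.29 among peaks of 1 kb or longer. The H3K27ac difference averaged 11.7 points and ranged from −3.83 without replicate 1 to 27.2 without replicate 2. In replicate 2 it turned to 0.368 at an FDR of 1% or less and 4.13 with chromosome X. The H3K27me3 difference averaged 3.18 points and turned to −6.59 at that FDR, −2.70 at scores of 100 or more and −1.67 with chromosome X. It also turned, to −4.57, as an unweighted mean over score classes, an alternative chosen after seeing the data. Without replicate 2 it was −5.96 and without replicate 1 it was 12.3. With chromosome X, replicate 2 alone gave −1.52, and the single-library peaks in H3K27me3 came to 24.2 and 24.6%. On the autosomes single-library peaks of replicate 1 had the higher H3K27me3 and the lower H3K27ac share under every overlap, FDR, length and score setting run. The overlap of single-library peaks with H3K27ac of the own minus the other fetus averaged 5.20 points (2.73 to 7.67 with 1 library left out). The shared-peak baselines were not 0 and had opposite signs in the libraries. An own-fetus effect was not tested. The tag ratio of 0.20 (log2) became 0.18 with reciprocal overlap, 0.33 at the FDR limit, 0.21 at 1 kb or longer, 0.23 at scores of 100 or more and with chromosome X, 0.15 when scaled by all tags and −0.0785 when scaled by tags in shared clusters. The cause of these changes was not tested. No paired analysis was possible because no result comes from a test. Peak lists hold no reads outside peaks, so a single-library peak may carry tags below the caller's limit in the other library.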
